A study of Mus musculus with 18 samples.

Results

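The genes described here are 37 mouse genes of glycolysis and of the response to low oxygen that is driven by hypoxia-inducible factor (HIF). They were taken by symbol from a list, by a rule that used no measured value. The list itself was chosen with earlier results of these data known. The deposited table of 55450 genes held all 37 symbols in 38 entries, because Aldoa has a main gene and an upstream gene of the same symbol. By role they are 4 transporters, 16 symbols of glycolytic enzymes in 17 entries, 3 regulatory enzymes, 4 HIF subunits or oxygen sensors and 10 further HIF targets.

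RNA was sequenced from 3 cultured mouse carcinoma lines, all labelled wild type. They were 4T1 (breast carcinoma, in RPMI medium), MC38 (colon carcinoma, in DMEM) and LLC (Lewis lung carcinoma, in DMEM), and each medium held fetal bovine serum. The treated groups received 100 µM sildenafil citrate, a drug that blocks the cGMP-degrading enzyme PDE5. Exposure lasted 24 hours for 4T1 and MC38, and LLC was exposed for 48 hours. The control groups of the same lines received the solvent DMSO, and each of the 6 groups had 3 libraries. Each line is 1 established tumour line, so a line stands for itself and not for a tumour type. LLC differed from the others in treatment time as well as in line, and 4T1 in medium, so these cannot be told apart.

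Glycolysis splits glucose into pyruvate, and in fast-growing cells lactate dehydrogenase turns much of that pyruvate into lactate, which monocarboxylate transporters carry out of the cell. HIF is a pair of proteins whose alpha subunit (HIF1A, or EPAS1, also called HIF2A) is marked for destruction by prolyl hydroxylases when oxygen is present. When oxygen is low, the alpha subunit persists, and HIF raises the transcription of glucose transporters, glycolytic enzymes, PDK1, BNIP3, VEGFA, CA9 and of the hydroxylases themselves. Tumour cells often express these genes strongly.

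HIF is known to bind DNA at the core letters ACGTG or GCGTG, so the promoter windows of the members were read for both. RefSeq windows for build GRCm38.p6, each of 300 bases from 250 before to 50 after a transcript start, were found for 34 of the 37 symbols. They gave 50 windows, and none was found for Epas1, Ndrg1 or Slc2a3. On either strand ACGTG stood in 54.0% of the member windows and in 19.6% of all 32851 windows, and GCGTG in 56.0% and 32.4%. The E-box letters CACGTG, which contain ACGTG and are read by other factors, stood in 6 of the 50 member windows and in 7.15% of all windows. Member windows were rich in CG, with a median of 20.5 CG pairs against 7 over all windows. Among the 8148 windows with at least the member median of CG, 29.0% held ACGTG, 64.0% held GCGTG and 11.6% held CACGTG. This last comparison was chosen after seeing the data, and all of these shares are descriptions of letters, not of binding. The windows of 4 members that rose in 4T1 and MC38 and fell in LLC are given here, with that of Slc16a1, which fell in 4T1 and rose in LLC. Capitals mark ACGTG and GCGTG on the strand shown or, as CACGT and CACGC, on the other strand.
Ankrd37, chr8:45999801-46000100, minus strand: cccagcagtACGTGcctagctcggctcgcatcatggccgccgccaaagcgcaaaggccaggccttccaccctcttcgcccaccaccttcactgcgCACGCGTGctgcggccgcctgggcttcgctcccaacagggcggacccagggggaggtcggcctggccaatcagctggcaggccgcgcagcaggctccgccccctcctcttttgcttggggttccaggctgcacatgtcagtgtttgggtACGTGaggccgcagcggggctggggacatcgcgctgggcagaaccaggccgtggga
Ero1l, chr14:45318523-45318822, minus strand: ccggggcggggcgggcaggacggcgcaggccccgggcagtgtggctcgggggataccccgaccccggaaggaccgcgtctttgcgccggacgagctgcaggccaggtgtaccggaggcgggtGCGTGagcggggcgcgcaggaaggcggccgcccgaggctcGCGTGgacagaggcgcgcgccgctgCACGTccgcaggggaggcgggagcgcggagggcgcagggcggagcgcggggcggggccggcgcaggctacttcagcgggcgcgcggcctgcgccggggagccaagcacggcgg
Egln3, chr12:54203825-54204124, minus strand: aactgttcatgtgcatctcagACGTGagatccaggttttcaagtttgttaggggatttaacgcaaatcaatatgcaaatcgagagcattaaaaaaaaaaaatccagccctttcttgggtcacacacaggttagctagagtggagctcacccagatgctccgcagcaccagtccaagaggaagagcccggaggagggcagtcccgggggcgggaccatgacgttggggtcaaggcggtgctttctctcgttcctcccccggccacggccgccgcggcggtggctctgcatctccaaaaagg
Bnip3, chr7:138909457-138909756, minus strand: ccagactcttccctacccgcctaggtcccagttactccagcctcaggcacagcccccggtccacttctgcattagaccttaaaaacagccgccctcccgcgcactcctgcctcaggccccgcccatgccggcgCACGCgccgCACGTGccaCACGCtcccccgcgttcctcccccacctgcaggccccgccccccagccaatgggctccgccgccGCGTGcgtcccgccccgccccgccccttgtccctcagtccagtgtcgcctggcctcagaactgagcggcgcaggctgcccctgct
Slc16a1, chr3:104638414-104638713, plus strand: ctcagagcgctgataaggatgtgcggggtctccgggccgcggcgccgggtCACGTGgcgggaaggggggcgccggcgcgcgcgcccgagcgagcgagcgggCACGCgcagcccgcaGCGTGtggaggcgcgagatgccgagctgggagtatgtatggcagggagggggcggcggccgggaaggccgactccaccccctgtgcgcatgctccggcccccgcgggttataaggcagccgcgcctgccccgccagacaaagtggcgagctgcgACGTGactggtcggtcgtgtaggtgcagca
Positions are counted from the transcript start, and in the Ankrd37 window ACGTG began at positions -241 and -6. The window of Egln3 held a single match, an ACGTG at position -229. Bnip3 had a CACGTG whose ACGTG letters began at position -107. Slc16a1 also had such an E-box, with ACGTG at position -199, and a further ACGTG at position 21 behind the start. Ero1l had 2 GCGTG, at positions -128 and -88, and an ACGTG on the other strand at position -63. Both letters thus stood in windows of genes with opposite responses.

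The depth of the 4T1 libraries was 41070021 to 61600646 counts, that of MC38 was 29438187 to 36417399 and that of LLC was 26348654 to 32129771. The labels do not state that replicates were grown apart. The p-values thus reflect no more than the spread among the libraries at hand, and that spread may be technical. The labelled tissues were checked against marker genes. 4T1 libraries expressed all 9 epithelial markers at 1 CPM (counts scaled to a common library size) or more. Of 6 mammary markers 3 reached 1 CPM in 4T1, with Gata3 at 78.8 and 60.6 CPM in sildenafil and control libraries, and Elf5 and Csn2 had no counts there. Of 6 colon markers 1 reached 1 CPM in MC38, Cdh17 at 6.19 and 4.65 CPM, and Epcam, Cdx1 and Cdx2 had no counts. Of 6 lung markers 1 reached 1 CPM in LLC, Napsa at 7.88 and 5.13 CPM, and Nkx2-1, Sftpa1, Sftpb, Sftpc, Scgb1a1 and Epcam had no counts. The summed level of the 9 epithelial markers was 2312 to 2411 CPM in sildenafil-treated 4T1 libraries, against 2839 to 2940 CPM in controls. In MC38 it was 2108 to 2263 CPM with sildenafil, against 2611 to 2672 CPM without, and in LLC 182 to 189 CPM, against 203 to 228 CPM. Krt8 made up nearly all of this sum in MC38 (2118 and 2547 CPM with and without sildenafil) and in LLC (186 and 212 CPM). Within the 4T1 sum, Krt19 was at 72.0 and 40.5 CPM and Krt7 at 428 and 695 CPM in sildenafil and control libraries. The summed level of 7 fibroblast markers was 145 to 156 CPM in sildenafil-treated LLC libraries, against 67.6 to 76.6 CPM in controls, and 51.4 to 59.7 CPM in treated 4T1 libraries, against 26.5 to 29.1 CPM. Pdgfra made up most of it, at 127 and 59.9 CPM in sildenafil and control LLC libraries and 53.9 and 27.5 CPM in 4T1. Col1a1, Col1a2, Dcn, Lum and Thy1 each averaged below 1 CPM in LLC and 4T1. MC38 had the highest sum, 599 to 607 CPM with sildenafil, against 608 to 628 CPM without, and 5 of the 7 markers reached 1 CPM. Col1a2 made up most of it there, at 508 and 518 CPM in sildenafil and control libraries. Col1a1 was at 26.6 and 41.9 CPM and Dcn at 28.9 and 30.8 CPM in MC38. The summed level of 10 leukocyte markers was 37.5 to 38.4 CPM in sildenafil-treated 4T1 libraries and 9.73 to 10.2 CPM in their controls. Cd68 made up almost all of it, only 1 of the 10 markers reached 1 CPM, and Adgre1, Tyrobp and Cd3e had no counts in either group. Gm26917, a predicted gene, had very uneven levels, with means of 260 and 163 CPM in sildenafil and control 4T1 libraries, 5414 and 11185 CPM in MC38, and 8959 and 20358 CPM in LLC. The part of these markers in the results was not tested.

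With sildenafil most members rose in 4T1 and MC38, while in LLC nearly all members that passed the test fell. In 4T1, 26 of the 35 members tested rose and 5 fell, where 66.7% of the 13914 genes tested were called, 33.5% up and 33.3% down. In MC38, 29 of 37 rose and 2 fell, where 37.8% of 13363 genes were called, 19.5% up and 18.3% down. In LLC, 1 of 37 rose and 17 fell, where 27.3% of 13561 genes were called, 15.1% up and 12.2% down. That LLC background hung on single libraries: it was 43.6% without control replicate 3, where 2 members rose and 19 fell, and 13.4% to 20.3% without any other 1 library. Gm26917 stood at 9660 CPM in that control library and at 29464 and 20845 CPM in the other LLC controls, on a scale common to all 18 libraries. A gene was called where edgeR's quasi-likelihood test gave a Benjamini-Hochberg adjusted p under 0.05 over all genes tested. The median log2 fold change of the members, sildenafil over control, was 0.30 in 4T1, 0.39 in MC38 and -0.17 in LLC, and the medians of all genes lay at 0.0023, 0.0040 and -0.0062. Most changes were modest: with a change of at least 2-fold required besides, 4 members rose in 4T1, 2 rose in MC38 and 1 fell in LLC, against 5.99% of all genes up, 0.733% up and 1.24% down. In such bulk libraries fewer cells that express a gene and less RNA per cell cannot be told apart.

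When the level of Gm26917 entered the fit, 3 members rose in 4T1, where 3.80% of all genes rose and 6.93% were called. With it 17 members rose in MC38, where 3.43% of all genes rose and 6.91% were called. In LLC 2 members rose and 23 fell, where 9.51% of all genes rose and 6.77% fell. In 4T1 and MC38 that level shared 0.966 and 0.856 of its variance with the treatment, and in LLC it shared 0.468.

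Of the 34 members tested in every line, edgeR called 0 higher in all 3 and 0 lower in all 3, where 5.26% of the 11274 genes tested in every line were higher and 2.69% lower in all 3. DESeq2 also called 0 and 0, and at an unadjusted p under 0.05 in edgeR 1 member, Hif1a, was higher in all 3 lines and 0 were lower. Hif1a was also called higher in all 3 with library totals alone, no filter, all 18 libraries in 1 fit or the named copies added. The same held with the replicate number as a block or LLC control replicate 3 left out. The most frequent pattern was a rise in 4T1 and MC38 with a fall in LLC, shown by 12 members: Slc2a1, Gpi1, Pfkp, Pdk1, Egln1, Egln3, Bnip3, Ndrg1, Ankrd37, P4ha2, Ero1l and Kdm3a. Of all genes tested in every line 1.11% had that pattern. Another 10 members rose in 4T1 and MC38 and were not called in LLC, as did 7.77% of all genes. Groups did not overlap, with sildenafil higher, for 26 members in 4T1 and 31 in MC38, against 35.7% and 25.3% of all genes tested. In LLC they did not overlap, with sildenafil lower, for 19 members, against 20.6% of all genes. Together the members took 1.95% ± 0.0498 of all counts in sildenafil-treated 4T1 libraries and 1.67% ± 0.0417 in their controls (SD, n = 3). The shares were 1.57% ± 0.0346 and 1.299% ± 0.0153 in MC38, and 2.33% ± 0.120 and 2.51% ± 0.113 in LLC. An exact two-sided permutation test gave p = 0.1, 0.1 and 0.2, where 0.1 is the smallest value that 3 against 3 libraries allow.

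**Figure D1:**
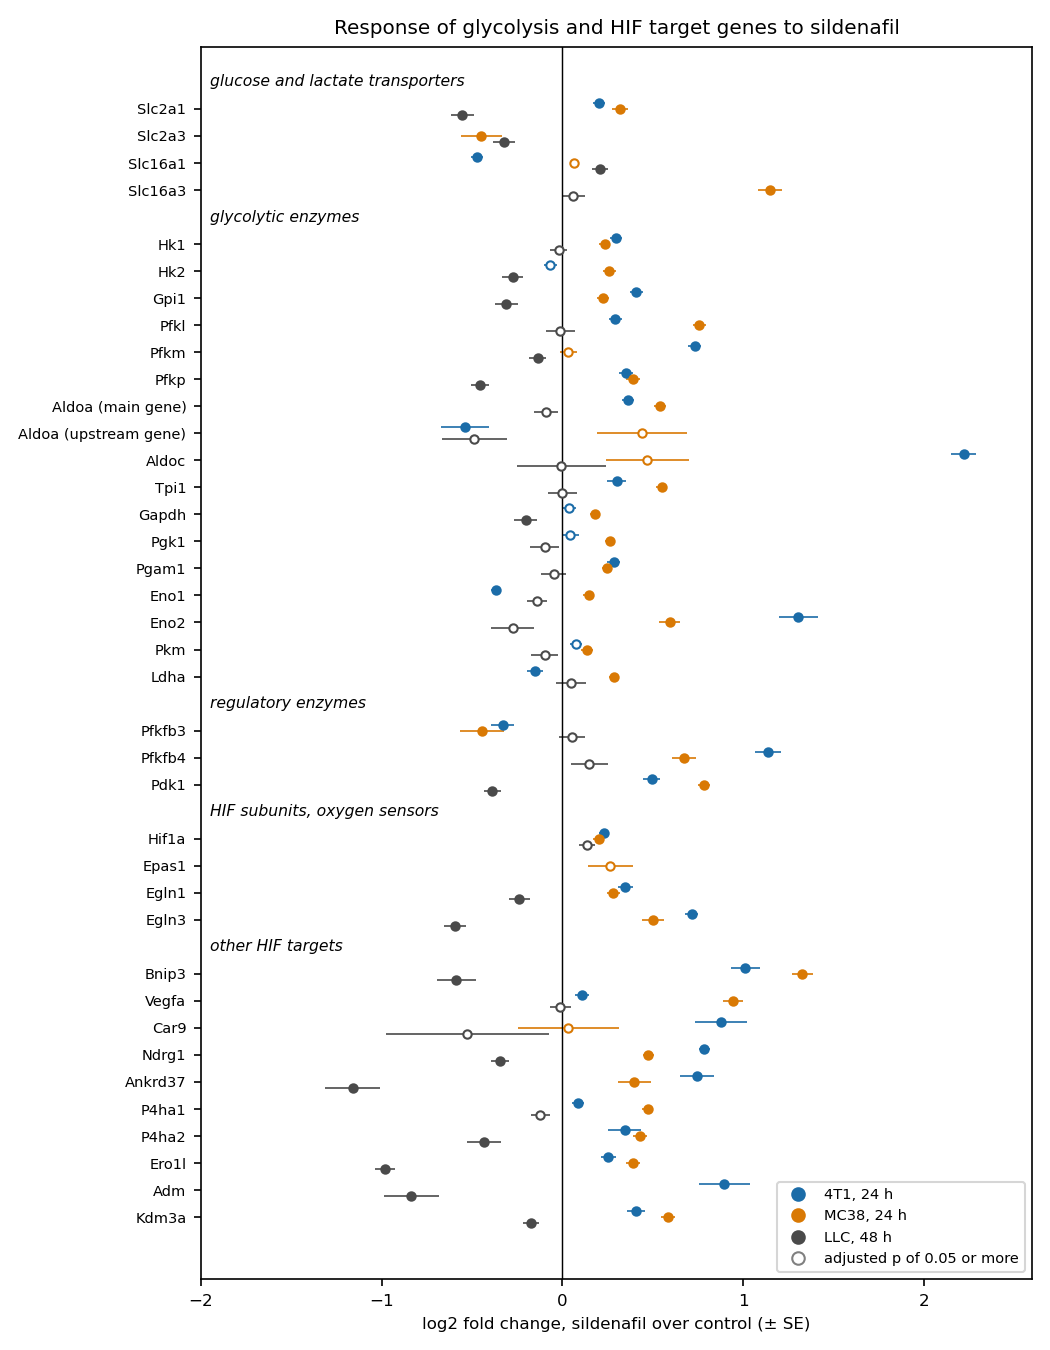
Log2 fold change, sildenafil over control, with its standard error (SE) for each member in 4T1 (24 h), MC38 (24 h) and LLC (48 h), grouped by role. Filled points had an adjusted p under 0.05. Points of 4T1 and MC38 lie mostly right of 0, and the LLC points lie mostly left of it or near it.

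Glucose enters these cells through facilitative transporters, of which Slc2a1 (GLUT1) was the main one measured. Slc2a1, on chromosome 4 (119108711 to 119137983 in GRCm38, the build of all positions given), had 152, 149.9 and 144 CPM in sildenafil-treated 4T1 libraries, against 131, 127 and 129.9 CPM in controls. In MC38 it had 141, 147 and 146 CPM with sildenafil, against 109, 125 and 114 CPM without. LLC libraries had 78.3, 80.6 and 80.1 CPM with sildenafil, against 123, 123 and 105 CPM in controls. Every treated library lay above every control in 4T1 and MC38 and below every control in LLC. The log2 fold changes were 0.20 ± 0.0313 in 4T1, 0.32 ± 0.0433 in MC38 and -0.55 ± 0.0637 in LLC (± SE, edgeR adjusted p = 6.16e-05, 8.59e-05 and 0.000319). Slc2a3 (GLUT3), a transporter of high affinity, fell in both lines in which it was tested. It fell in MC38 to 4.66 ± 0.528 CPM with sildenafil, against 6.35 ± 0.450 CPM in controls, and in LLC to 28.5 ± 1.08 CPM, against 35.7 ± 2.11 CPM. Its log2 fold changes were -0.45 ± 0.114 and -0.32 ± 0.0606, and in 4T1 it had 2, 2 and 1 counts with sildenafil and 1, 0 and 1 in controls.

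The lactate transporters moved in other ways. Slc16a1 (MCT1), on chromosome 3 (104638668 to 104658462), had 232, 235 and 247 CPM in sildenafil-treated 4T1 libraries, against 319, 332 and 339 CPM in controls. LLC libraries had 519.8, 501 and 512 CPM with sildenafil, against 439, 436 and 452 CPM without. It was the single member that fell in 4T1 and rose in LLC, by log2 fold changes of -0.47 ± 0.0335 (edgeR adjusted p = 3.67e-08) and 0.21 ± 0.045 (edgeR adjusted p = 0.00809). In MC38 its change of 0.07 ± 0.0265 did not pass the test (edgeR adjusted p = 0.0598), although the groups did not overlap. It passed with library totals alone as the scaling (edgeR adjusted p = 0.0256). It also passed with at least 5 CPM in 3 libraries, protein-coding genes alone or the replicate number as a block (edgeR adjusted p = 0.0421, 0.045 and 0.0226). Slc16a3 (MCT4), the lactate exporter that HIF is known to induce, had 179, 179 and 167 CPM in sildenafil-treated MC38 libraries, against 74.1, 87.1 and 74.8 CPM in controls. That rise of 1.15 ± 0.0663 on the log2 scale was, with that of Bnip3, 1 of the 2 that exceeded 2-fold in MC38. In LLC the Slc16a3 groups overlapped, at 175 ± 11.9 CPM with sildenafil and 168 ± 11.97 CPM without. In 4T1 no sildenafil library had a count of it, and the controls had 3, 0 and 0 counts. A count of 0 allows up to 3 counts, or 0.0730 CPM in the shallowest 4T1 library, a limit that covers counting error alone.

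Of the 17 glycolytic enzyme entries, 10 rose and 3 fell in 4T1, 14 rose and none fell in MC38, and none rose and 5 fell in LLC. Their median log2 fold changes were 0.29, 0.26 and -0.10. Of all genes tested, 33.5% rose and 33.3% fell in 4T1, 19.5% and 18.3% in MC38, and 15.1% and 12.2% in LLC. With Gm26917 as a covariate, only Pfkm and Aldoc of these entries stayed called in 4T1. Hexokinases carry out the first step. Hk1 rose by 0.30 ± 0.0319 in 4T1 and 0.23 ± 0.0294 in MC38, with 136 ± 0.952 CPM in treated and 138 ± 6.19 CPM in control LLC libraries. Hk2, the isoenzyme known as a HIF target, had 98.3, 105 and 100.4 CPM in sildenafil-treated MC38 libraries, against 82.1, 85.7 and 85.7 CPM in controls. LLC libraries had 143, 149 and 159.5 CPM of Hk2 with sildenafil, against 185, 191 and 171 CPM without. Hk2 thus rose in MC38 (0.26 ± 0.0351) and fell in LLC (-0.28 ± 0.0575), with no overlap in either. In 4T1 its groups overlapped (-0.07 ± 0.0355, edgeR adjusted p = 0.112), and without sildenafil replicate 3 it was called lower (-0.10, edgeR adjusted p = 0.0062).

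Gpi1 converts glucose 6-phosphate to fructose 6-phosphate. It had 564, 559.7 and 537 CPM in sildenafil-treated 4T1 libraries, against 441, 407 and 401 CPM in controls. MC38 libraries had 412, 412 and 385 CPM with sildenafil, against 339.7, 356 and 339 CPM without. LLC had 739.5, 842 and 821 CPM with sildenafil, against 948, 1013 and 1017 CPM without. Groups were apart in each line, with log2 fold changes of 0.41 ± 0.0376, 0.22 ± 0.033 and -0.31 ± 0.0622.

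The phosphofructokinases catalyse the committed step, and their 3 isoenzymes responded unequally. Pfkl, the liver type, had 214, 217 and 206 CPM in sildenafil-treated MC38 libraries, against 122, 132 and 123 CPM in controls (0.76 ± 0.0354). It rose less in 4T1 (0.29 ± 0.0363), and its LLC groups overlapped. Pfkm, the muscle type, had 64.1, 65.8 and 65.4 CPM in sildenafil-treated 4T1 libraries, against 40.6, 38.9 and 38.0 CPM in controls (0.73 ± 0.0365). In MC38 it was at 35.1 ± 1.19 CPM with sildenafil, against 34.3 ± 1.15 CPM. In LLC its fall of -0.14 ± 0.0457 was just past the threshold (edgeR adjusted p = 0.0497). That call was lost without control replicate 1 or 2 or any 1 sildenafil replicate (edgeR adjusted p from 0.073 to 0.192), and with DESeq2 (adjusted p = 0.0828), and in 11 of 17 alternatives in all. Pfkp, the platelet type, had 190.3, 192 and 189 CPM in sildenafil-treated 4T1 libraries, against 158, 146 and 143 CPM in controls (0.35 ± 0.0368). It rose in MC38 to 87.1 ± 2.55 CPM, against 66.4 ± 2.50 CPM in controls (0.39 ± 0.0374). LLC libraries had 164, 175 and 168 CPM of Pfkp with sildenafil, against 219, 235 and 240.1 CPM without (-0.45 ± 0.0502).

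Aldolases split fructose bisphosphate. The main Aldoa gene (ENSMUSG00000030695.16), on chromosome 7 (126795234 to 126800751), rose to 2069.8 ± 63.4 CPM in 4T1, against 1611 ± 39.97 CPM in controls (0.36 ± 0.0329). In MC38 it rose to 1122 ± 35.4 CPM, against 772 ± 25.96 CPM (0.54 ± 0.0326), and the LLC groups overlapped. The upstream Aldoa entry (ENSMUSG00000114515.2), which lies at 126800790 to 126809108, was low. It fell in 4T1 to 1.99 ± 0.136 CPM, against 2.89 ± 0.321 CPM (-0.54 ± 0.133), and was not called in MC38 or LLC. Aldoc, the brain-type aldolase, showed the largest rise of any member, and it did so in 4T1. Sildenafil-treated 4T1 libraries had 117, 120.2 and 113 CPM, against 28.4, 24.0 and 22.5 CPM in controls (2.22 ± 0.0706, edgeR adjusted p = 1.12e-09). In MC38 and LLC every library had 1.24 CPM of it or less, and it was not called.

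The enzymes after aldolase were among the most abundant members. Tpi1, triose phosphate isomerase, rose in 4T1 (0.30 ± 0.0509) and MC38 (0.55 ± 0.0326) and averaged 1253 ± 90.4 CPM with sildenafil and 1253 ± 121 CPM without in LLC. Gapdh, which makes NADH and is often used as a reference gene, had 2691, 2632 and 2554 CPM in sildenafil-treated MC38 libraries, against 2313, 2337 and 2303 CPM in controls (0.18 ± 0.0289). LLC libraries had 2903, 3081 and 3187 CPM of Gapdh with sildenafil, against 3533, 3614 and 3409 CPM without (-0.20 ± 0.0623, edgeR adjusted p = 0.0365). Gapdh thus rose in MC38 and fell in LLC, and the LLC call was lost without any 1 library other than control replicate 3 (edgeR adjusted p from 0.0819 to 0.142). Pgk1, on the X chromosome, rose in MC38 (0.26 ± 0.0268). Pgam1 rose in 4T1 (0.28 ± 0.0379) and MC38 (0.24 ± 0.0275). In 4T1 Gapdh, Pgk1 and Pkm were not called, and without sildenafil replicate 3 each was called higher (edgeR adjusted p = 0.000633, 0.00156 and 0.000254).

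The enolases make phosphoenolpyruvate. Eno1 had 1100.0, 1077 and 1102 CPM in sildenafil-treated 4T1 libraries, against 1398, 1409 and 1417 CPM in controls (-0.37 ± 0.0278). MC38 libraries had 1784, 1802 and 1722 CPM of Eno1 with sildenafil, against 1597, 1612 and 1590.0 CPM without (0.15 ± 0.0282). It therefore fell in 4T1 and rose in MC38, and in LLC it was not called (-0.14 ± 0.054, edgeR adjusted p = 0.0821), though it was without control replicate 3 (edgeR adjusted p = 0.0193). RSEM divides shared reads between near-identical genes, and Eno1b held up to 48.1% as many counts as Eno1, so Eno1 counts are uncertain. With the copies added to it, its log2 fold changes were -0.36 in 4T1, 0.15 in MC38 and -0.14 in LLC, and it was called in 4T1 and MC38. Pgam1 is uncertain for the same reason, with up to 3.91% as many counts on Pgam1-ps2. Eno2, the neuronal type, had 20.1, 19.8 and 21.96 CPM in sildenafil-treated 4T1 libraries, against 10.1, 7.20 and 7.64 CPM in controls. It rose in 4T1 by 1.31 ± 0.106 and in MC38 by 0.59 ± 0.0571, where it had 18.1, 17.8 and 17.8 CPM with sildenafil and 11.6, 11.97 and 12.02 CPM without.

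Pkm, pyruvate kinase, rose in MC38 (0.14 ± 0.0327) and was not called in 4T1 (0.08 ± 0.0323, edgeR adjusted p = 0.0536) or LLC. Ldha, which makes lactate from pyruvate, had 1416, 1408 and 1252 CPM in sildenafil-treated 4T1 libraries, against 1532, 1523 and 1464 CPM in controls. MC38 libraries had 1049, 1029 and 1012 CPM with sildenafil, against 849, 869 and 816 CPM without. The 4T1 groups were apart with sildenafil lower (-0.15 ± 0.0441, edgeR adjusted p = 0.00949), and the MC38 groups with sildenafil higher (0.29 ± 0.0303, edgeR adjusted p = 2.83e-06). With library totals alone as the scaling the 4T1 call was lost (edgeR adjusted p = 0.0946), as it was in a fit of all 18 libraries (0.0966). LLC libraries had 2250.4 ± 188 CPM of Ldha with sildenafil and 2174 ± 191 CPM without, and the groups overlapped.

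The regulatory enzymes set the flow of glucose carbon. PFKFB enzymes make or remove fructose 2,6-bisphosphate, the activator of phosphofructokinase, and Pfkfb3 and Pfkfb4 moved in opposite directions. Pfkfb3, known for its high kinase activity, had 9.25, 9.81 and 10.3 CPM in sildenafil-treated 4T1 libraries, against 11.6, 12.3 and 13.0 CPM in controls (-0.33 ± 0.0657). It also fell in MC38, to 4.11 ± 0.215 CPM, against 5.60 ± 0.808 CPM (-0.44 ± 0.123). Pfkfb4 had 12.2, 11.5 and 13.0 CPM in sildenafil-treated 4T1 libraries, against 5.66, 5.79 and 5.12 CPM in controls. In MC38 it had 15.0, 15.9 and 14.6 CPM with sildenafil, against 9.20, 9.82 and 9.49 CPM without. Its rises were 1.14 ± 0.0738 and 0.67 ± 0.0677 on the log2 scale, and in LLC neither gene was called.

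Pdk1 phosphorylates pyruvate dehydrogenase and so holds pyruvate back from the mitochondrial cycle. On chromosome 2 (71873224 to 71903858), it had 125, 125 and 114 CPM in sildenafil-treated 4T1 libraries, against 89.4, 88.3 and 80.9 CPM in controls. In MC38 all 3 treated libraries had 106 CPM, against 60.1, 63.5 and 61.1 CPM in controls. LLC libraries had 226, 240.3 and 244 CPM with sildenafil, against 299, 314 and 316 CPM without. Groups were wide apart in every line, and the log2 fold changes were 0.49 ± 0.0461, 0.78 ± 0.033 and -0.39 ± 0.0484 (edgeR adjusted p = 6.38e-07, 7.69e-11 and 0.000505).

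The transcript of Hif1a, whose protein is controlled mainly by degradation, had 367, 372 and 378 CPM in sildenafil-treated 4T1 libraries, against 312, 322 and 319 CPM in controls. MC38 libraries had 264, 248 and 263 CPM with sildenafil, against 228, 225 and 221 CPM without. LLC had 285, 267 and 274 CPM with sildenafil, against 258, 249 and 245 CPM without. Treated libraries were higher than controls in all 3 lines, and the log2 fold changes were 0.23 ± 0.0279, 0.20 ± 0.0311 and 0.14 ± 0.046. The LLC value did not pass the test (edgeR adjusted p = 0.051), and it passed without control replicate 3 (edgeR adjusted p = 0.0219) and in a fit of all 18 libraries (edgeR adjusted p = 0.00149). Epas1 had no counts in any 4T1 library. LLC had 1 count in 1 sildenafil library and none in controls. MC38 had 6.40 ± 0.771 CPM of Epas1 with sildenafil and 5.34 ± 0.833 CPM without, with overlap (edgeR adjusted p = 0.113), and it was called higher without control replicate 3 (edgeR adjusted p = 0.0187).

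Both prolyl hydroxylases among the members are themselves HIF targets. Egln1 (PHD2), the main sensor of oxygen in most cells, had 161, 157 and 145 CPM in sildenafil-treated 4T1 libraries, against 126, 121 and 116 CPM in controls. In MC38 it had 91.6, 95.9 and 90.2 CPM with sildenafil, against 75.0, 75.9 and 77.1 CPM without. LLC had 46.9, 49.4 and 50.4 CPM with sildenafil, against 57.6, 61.1 and 54.2 CPM without. These were changes of 0.35 ± 0.0423, 0.28 ± 0.0339 and -0.24 ± 0.0576, with no overlap in any line. The LLC call was lost without control replicate 2, sildenafil replicate 1 or sildenafil replicate 2 (edgeR adjusted p = 0.0562, 0.0595 and 0.0591). Egln3 (PHD3), on chromosome 12 (54178981 to 54203860), had 151, 151 and 161 CPM in sildenafil-treated 4T1 libraries, against 96.0, 94.4 and 90.9 CPM in controls. MC38 had 50.5, 53.4 and 54.2 CPM of it with sildenafil, against 33.9, 41.0 and 36.6 CPM without. In LLC it had 118, 113 and 112 CPM with sildenafil, against 182, 180.1 and 157 CPM without. Egln3 moved further than Egln1 in each line, by 0.72 ± 0.0355, 0.50 ± 0.0607 and -0.59 ± 0.0608 (edgeR adjusted p = 1.15e-09, 4.26e-05 and 0.00017), though the difference between the 2 genes was not tested.

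Among the 10 further HIF targets, all 10 rose in 4T1, 8 of the 9 tested rose in MC38, and 7 of 10 fell in LLC. Their median log2 fold changes of 0.58, 0.47 and -0.48 were the farthest from 0 of the role groups in 4T1 and LLC. Over all genes tested, 33.5% rose in 4T1, 19.5% rose in MC38 and 12.2% fell in LLC. With Gm26917 as a covariate, only Ndrg1 of these targets stayed called in 4T1, and Vegfa turned sign there (-0.29). Bnip3, a mitochondrial protein that promotes mitophagy, lies on chromosome 7 (138890836 to 138909519). It had 173, 177 and 150.4 CPM in sildenafil-treated 4T1 libraries, against 90.01, 82.2 and 76.0 CPM in controls. Its MC38 values were 68.5, 75.1 and 70.3 CPM with sildenafil, against 25.9, 30.6 and 28.6 CPM without. LLC had 113, 138 and 139 CPM with sildenafil, against 177, 189 and 220.2 CPM without. The gap between groups exceeded the spread within them in 4T1 and MC38, and the LLC groups were also apart. Its log2 fold changes were 1.01 ± 0.0801, 1.33 ± 0.0571 and -0.59 ± 0.108 (edgeR adjusted p = 1.45e-05, 1.89e-09 and 0.00855).

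Ero1l, an oxidase that forms disulphide bonds in the endoplasmic reticulum, lies on chromosome 14 (45283087 to 45318771). It had 556, 559 and 509 CPM in sildenafil-treated 4T1 libraries, against 475, 455 and 431 CPM in controls. Its MC38 values were 137, 144 and 144 CPM with sildenafil, against 104, 114 and 107 CPM without. LLC had 174, 185 and 189 CPM with sildenafil, against 342, 382 and 359 CPM without. Its fall in LLC, -0.98 ± 0.0556 (edgeR adjusted p = 5.35e-06), had the lowest adjusted p of the members in LLC, beside rises of 0.25 ± 0.0429 in 4T1 and 0.39 ± 0.037 in MC38. Ankrd37, a small ankyrin-repeat protein, fell furthest in LLC. It had 1.44, 1.76 and 1.82 CPM with sildenafil, against 3.42, 3.89 and 3.94 CPM without (-1.16 ± 0.151). In 4T1 it had 5.72, 5.55 and 5.61 CPM with sildenafil, against 3.07, 3.43 and 3.60 CPM without (0.74 ± 0.0935). MC38 had 9.01, 10.3 and 9.02 CPM with sildenafil, against 6.79, 7.74 and 6.93 CPM without (0.40 ± 0.0908). The groups of Ankrd37 were apart in all 3 lines, at low levels.

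**Figure D2:**
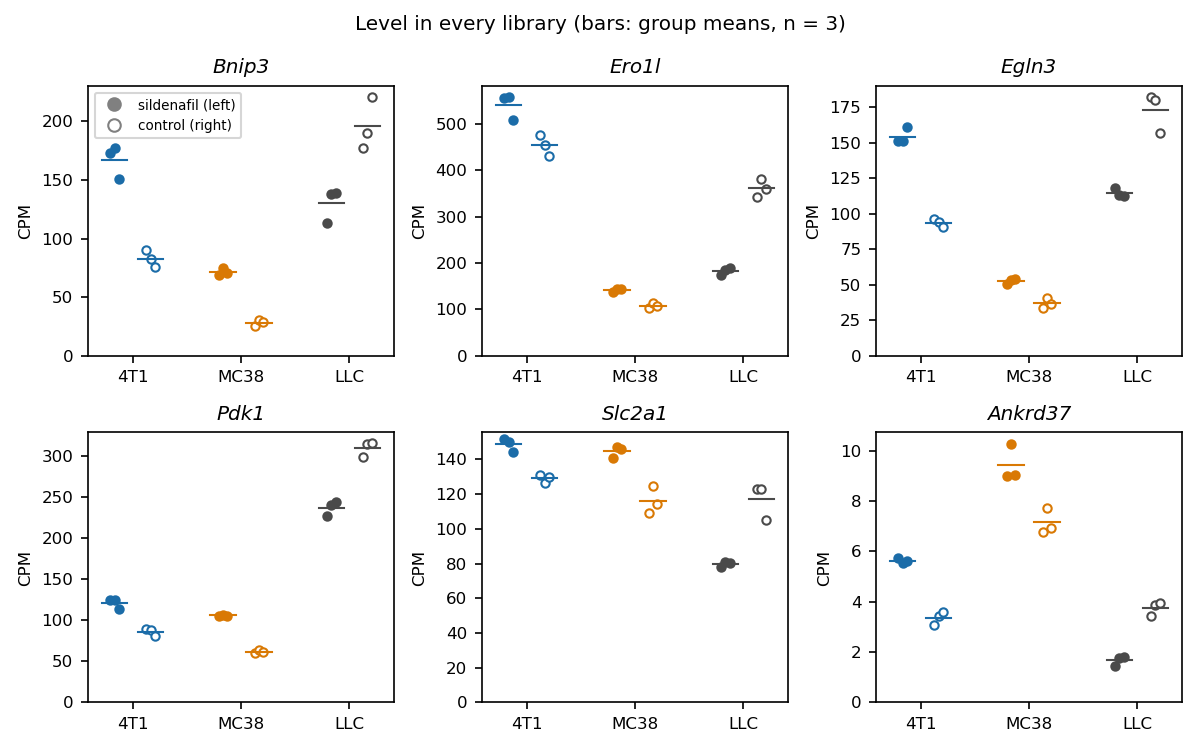
CPM in every library for Bnip3, Ero1l, Egln3, Pdk1, Slc2a1 and Ankrd37, scaled within each line, with filled points for sildenafil on the left and open points for control on the right in each line. Horizontal bars are group means (n = 3). Treated points lie above the control points in 4T1 and MC38 and below them in LLC.

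Vegfa, the angiogenic growth factor, rose mainly in MC38. It had 51.4, 54.6 and 50.5 CPM in sildenafil-treated MC38 libraries, against 25.4, 29.6 and 26.2 CPM in controls (0.94 ± 0.0554). The 4T1 values of 105, 102 and 111 CPM with sildenafil stood just above those of 100.5, 97.5 and 97.1 CPM in controls (0.11 ± 0.0373, edgeR adjusted p = 0.0194). That call was lost without control replicate 2 (edgeR adjusted p = 0.0782) or control replicate 3 (0.0811). LLC groups overlapped, at 56.9 ± 2.68 CPM with sildenafil and 57.3 ± 3.16 CPM without. Car9, a membrane carbonic anhydrase that regulates pH, had 60.3, 56.6 and 55.3 CPM in sildenafil-treated 4T1 libraries, against 38.3, 28.5 and 26.8 CPM in controls (0.88 ± 0.143). In MC38 and LLC no library of either group exceeded 0.651 CPM of Car9. Ndrg1, a stress-responsive gene, had 1319, 1304 and 1333 CPM in sildenafil-treated 4T1 libraries, against 779.6, 769.8 and 743 CPM in controls. It had 166, 169 and 169.9 CPM with sildenafil in MC38, against 117, 124 and 122 CPM without. In LLC it had 104, 109 and 104 CPM with sildenafil, against 126, 139 and 137 CPM without. Ndrg1 thus followed the pattern of Bnip3 at 0.79 ± 0.0297, 0.48 ± 0.0311 and -0.34 ± 0.0502.

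Adm encodes the vasodilator peptide adrenomedullin. It had 4.75, 5.10 and 4.22 CPM in sildenafil-treated 4T1 libraries, against 3.13, 2.30 and 2.12 CPM in controls (0.90 ± 0.141). LLC had 21.0, 24.6 and 25.99 CPM of Adm with sildenafil, against 34.3, 43.3 and 50.1 CPM without (-0.84 ± 0.152). It was not tested in MC38, which had 2, 6 and 2 counts with sildenafil and 5, 8 and 1 in controls. P4ha1 and P4ha2 are alpha subunits of the collagen prolyl 4-hydroxylase. P4ha2 had 14.4, 12.9 and 12.2 CPM in sildenafil-treated 4T1 libraries, against 11.9, 9.93 and 9.31 CPM in controls (0.35 ± 0.0899). In MC38 it had 50.9, 48.7 and 49.4 CPM with sildenafil, against 36.7, 37.1 and 36.7 CPM without (0.43 ± 0.04), and in LLC 7.97, 8.53 and 9.60 CPM, against 11.1, 12.6 and 11.6 CPM (-0.43 ± 0.0949). P4ha1 rose in MC38 to 169 ± 2.25 CPM, against 122 ± 3.17 CPM (0.47 ± 0.0305). Its 4T1 groups overlapped at a change of 0.09 ± 0.0319, and that call was lost without any 1 of control replicates 2 and 3 and sildenafil replicates 1 and 2 (edgeR adjusted p from 0.101 to 0.127).

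Kdm3a, a histone H3K9 demethylase that itself needs oxygen, had 68.6, 68.4 and 75.8 CPM in sildenafil-treated 4T1 libraries, against 50.5, 55.5 and 54.1 CPM in controls (0.41 ± 0.0479). MC38 had 73.0, 77.1 and 77.3 CPM with sildenafil, against 50.2, 51.8 and 49.6 CPM without (0.59 ± 0.0378). In LLC it had 63.3, 63.3 and 62.4 CPM with sildenafil, against 69.1, 73.1 and 71.0 CPM without (-0.17 ± 0.0449). Groups were apart in all lines, and the LLC call was lost without control replicate 2 or any 1 sildenafil replicate (edgeR adjusted p from 0.0529 to 0.0849).

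The difference between the responses of 2 lines was tested on all 18 libraries. The LLC response was lower than the 4T1 response for 26 of the 35 members tested in both lines and higher for 3, where 42.0% of 16040 genes differed, 20.2% lower and 21.8% higher. It was lower than the MC38 response for 28 of 36 members and higher for 2, where 22.3% of genes differed, 9.68% lower and 12.6% higher. MC38 exceeded 4T1 for 10 of 34 members and fell short for 7, where 34.6% of genes differed, 17.9% higher and 16.7% lower. The median differences in log2 fold change of these members were -0.58, -0.54 and 0.09. Unlike the members counted here, the 16040 genes were not limited to those tested in both lines. All 38 member entries were tested in that fit, with the same numbers called. Bnip3 differed most between LLC and MC38 (-1.90 ± 0.156, edgeR adjusted p = 1.04e-06), and Aldoc between LLC and 4T1 (-2.23 ± 0.252, edgeR adjusted p = 2.53e-07). Slc16a1 and Pfkfb3 stood on the other side: the LLC response exceeded that of 4T1 by 0.68 ± 0.0481 for Slc16a1 and that of MC38 by 0.51 ± 0.128 for Pfkfb3. The call of the LLC and 4T1 responses as different was lost in some alternatives for 3 of 29 members. That of LLC and MC38 was lost for 3 of 30 members and that of MC38 and 4T1 for 4 of 17. Gm26917 as a covariate was not among the alternatives run for these differences. Between the lines treated for 24 hours, MC38 exceeded 4T1 most for the low upstream Aldoa entry (0.96 ± 0.298), then for Vegfa (0.82 ± 0.0742), Slc16a1 (0.52 ± 0.0481) and Eno1 (0.49 ± 0.0508). MC38 fell short of 4T1 for Aldoc (-1.77 ± 0.253), Eno2 (-0.73 ± 0.14) and Pfkm (-0.72 ± 0.0591). Comparisons that share a line share its libraries.

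Untreated cells of the 3 lines differed widely in these genes, as they did in most genes. Per kilobase of exon, Pkm (687 ± 16.6), Pgk1 (664 ± 26.1) and the main Aldoa gene (529.6 ± 14.8) were highest in 4T1 controls, in CPM per kilobase, and the first 2 differed by less than their SDs combined. MC38 controls were led by Pkm (722 ± 19.7), Gapdh (588 ± 3.62) and Pgk1 (451 ± 6.33) on the same scale. In LLC controls Pgk1 (1197 ± 112) and Pkm (1164 ± 96.7) differed by less than their SDs and were followed by Gapdh (837 ± 21.7). The 8 highest members were the same in each line: Pkm, Pgk1, Gapdh, Aldoa, Ldha, Pgam1, Eno1 and Tpi1. The regulators Pfkfb3 and Pfkfb4 were lower, at 1.56 ± 0.0789 and 1.08 ± 0.0725 CPM per kilobase in 4T1 controls.

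**Figure D3:**
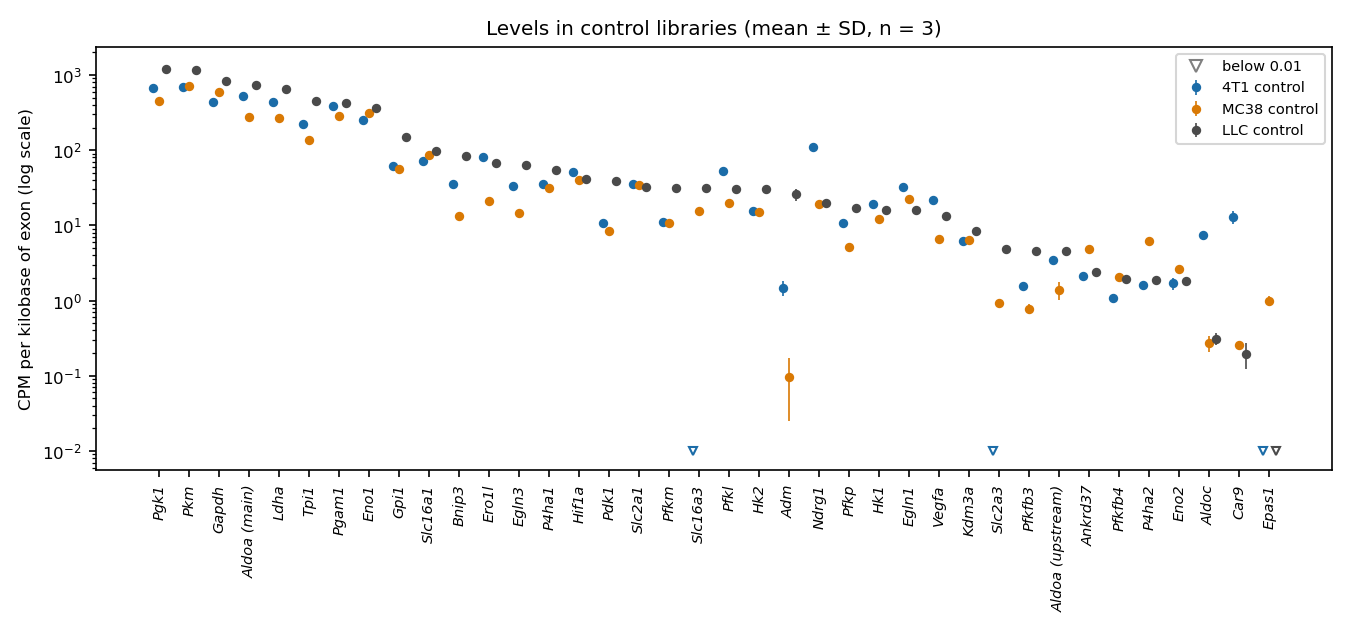
Mean level ± SD (n = 3) of each member in control libraries of 4T1, MC38 and LLC, in CPM per kilobase of exon on a log axis, with triangles for means below 0.01. LLC points are the highest for most enzymes, and Ndrg1, Aldoc and Car9 are highest in 4T1.

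Compared gene by gene over the 9 control libraries, 4T1 was higher than MC38 for 22 of 38 members and lower for 12, where 84.5% of 15385 genes differed, 40.2% higher and 44.3% lower. Against LLC, 4T1 was higher for 9 and lower for 26, where 86.7% of genes differed, 42.9% higher and 43.7% lower. MC38 was higher than LLC for 5 and lower for 27, where 77.2% differed, 38.7% higher and 38.5% lower. The median log2 differences were 0.34, -0.59 and -0.77, so LLC controls had the higher level for most members. Hif1a was at 292 ± 4.52 CPM in 4T1, 237 ± 3.83 CPM in MC38 and 250.4 ± 6.40 CPM in LLC, and the difference of MC38 from LLC of -0.08 missed the threshold (edgeR adjusted p = 0.0536). That difference passed with DESeq2 (-0.13, adjusted p = 0.000372), library totals alone (-0.16), protein-coding genes alone (-0.15), at least 5 CPM in 3 libraries (-0.12) or LLC control replicate 3 left out (-0.09). Slc2a1 was at 119 ± 2.16, 122 ± 8.41 and 117 ± 10.2 CPM in the same order, and no pair of lines was called different (edgeR adjusted p from 0.37 to 0.747). Pdk1 was at 79.2 ± 4.52 CPM in 4T1, 64.8 ± 1.87 CPM in MC38 and 309.3 ± 9.54 CPM in LLC. Bnip3 had 76.0 ± 6.68, 29.9 ± 2.51 and 195 ± 22.5 CPM, and Egln3 86.1 ± 2.71, 39.1 ± 3.76 and 173 ± 13.8 CPM in the same order. For both genes LLC exceeded 4T1, and 4T1 exceeded MC38, beyond their spread.

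4T1 controls nearly lacked Slc16a3 (3, 0 and 0 counts) and Slc2a3 (1, 0 and 1 counts). Slc16a3 averaged 82.8 CPM in MC38 and 168 CPM in LLC controls, and Slc2a3 6.69 and 35.6 CPM. On the higher side, 4T1 controls stood out by Ndrg1, with 702 ± 19.7 CPM, against 127 ± 3.95 CPM in MC38 and 134 ± 6.95 CPM in LLC. Car9 was at 28.7 ± 5.78 CPM in 4T1, against 0.590 ± 0.0558 in MC38 and 0.455 ± 0.171 in LLC, log2 differences of 5.59 ± 0.212 and 5.95 ± 0.222. Aldoc was likewise higher in 4T1, by 4.69 ± 0.153 and 4.46 ± 0.149 on the log2 scale. Vegfa exceeded MC38 in 4T1 by 1.66 ± 0.0582 and LLC by 0.66 ± 0.0554. P4ha2 was at 9.54 ± 1.27 CPM in 4T1, 38.8 ± 0.287 CPM in MC38 and 11.8 ± 0.756 CPM in LLC. Pkm (-0.14) and Kdm3a (-0.12) were called lower in 4T1 than in MC38. Both calls were lost with DESeq2 (adjusted p = 0.0989 and 0.145), with protein-coding genes alone and with some single libraries left out. With library totals alone as the scaling the signs turned and neither was called (0.0373 and 0.0569). Hk2 and Pfkm were not called different between 4T1 and MC38 (-0.016 and -0.0077), and with that scaling they were called higher in 4T1 (0.16 and 0.17). Epas1 had no counts in 4T1 and LLC controls and 145, 156 and 194 counts in MC38 controls. Adm was at 2.31 ± 0.504 CPM in 4T1, 0.159 ± 0.118 CPM in MC38 and 42.5 ± 7.94 CPM in LLC.

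Within families the share of each isoenzyme per kilobase of exon was compared as a description. Pfkfb3 made up 34.1% ± 1.28 of Pfkfb3 plus Pfkfb4 in sildenafil-treated 4T1 libraries and 58.9% ± 2.67 in controls (SD, n = 3). In MC38 it made up 14.9% ± 1.05 with sildenafil and 27.5% ± 3.29 without, and in LLC 68.6% ± 2.37 and 69.9% ± 3.98. The balance thus turned to Pfkfb4 in treated 4T1 cells, where Pfkfb3 had been the larger share. Slc16a3 supplied 27.6% ± 0.879 of the lactate transporter pair in sildenafil-treated MC38 libraries and 15.2% ± 1.27 in controls. Pfkl was 65.1% ± 0.266 of the phosphofructokinases in treated MC38 libraries and 55.2% ± 1.61 in controls. Hk1 was 61.7% ± 0.0665 of the hexokinase pair in treated 4T1 libraries and 55.5% ± 0.647 in controls. In LLC, Egln3 was 76.0% ± 1.17 of the hydroxylase pair with sildenafil and 80.2% ± 0.736 without. Each of these pairs, other than Pfkfb3 in LLC, did not overlap between groups (exact two-sided permutation p = 0.1, the smallest possible). Exon length was taken over all annotated transcripts of a gene, so the shares depend on which transcripts the cells used.

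**Figure D4:**
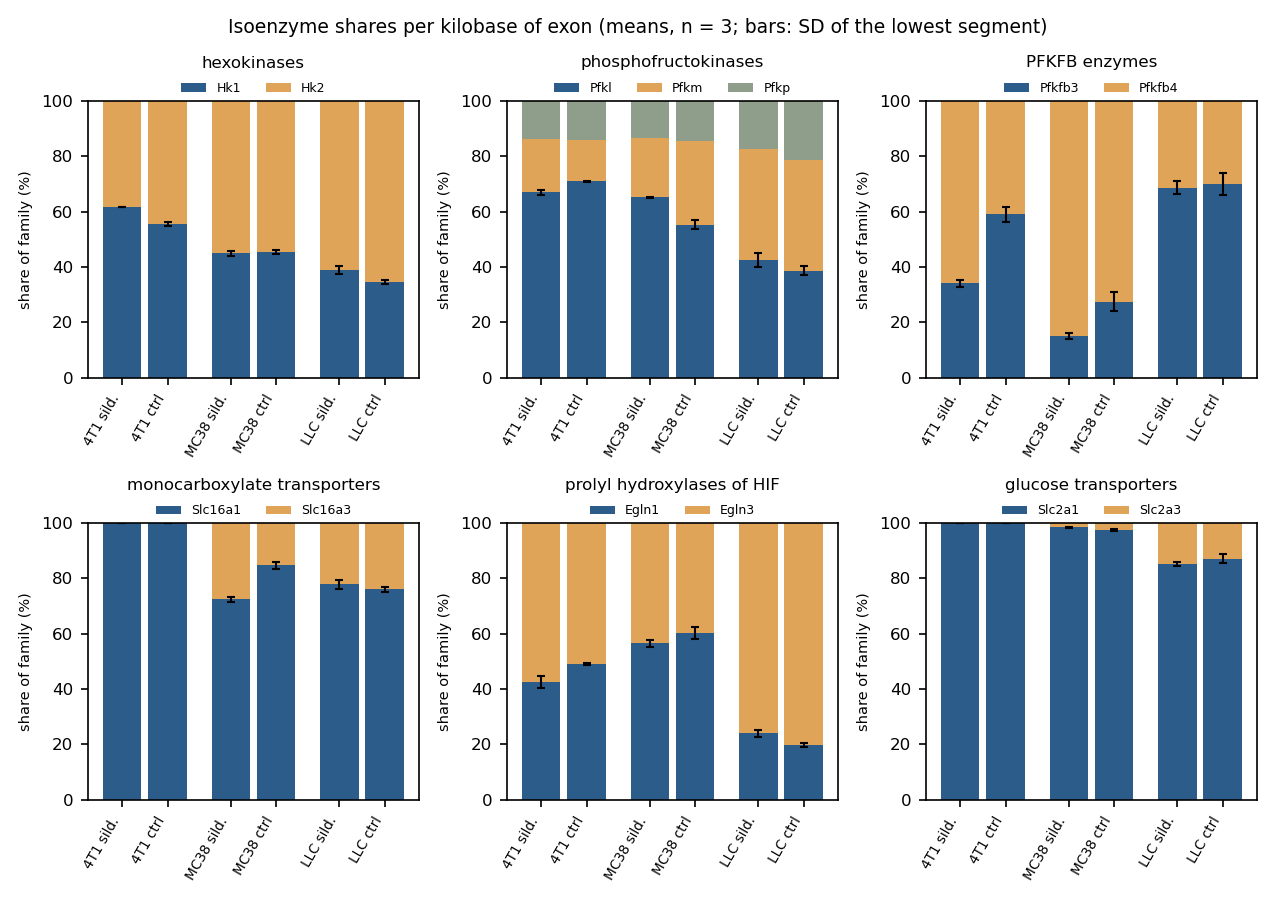
Share of each isoenzyme within its family, in percent of CPM per kilobase of exon, as stacked bars of group means (n = 3), sildenafil left of control in each line. Error bars are the SD of the lowest segment. Pfkfb3 takes a smaller share with sildenafil in 4T1 and MC38, and Slc16a3 a larger one in MC38.

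Other genes of these pathways, from lists made for comparison, were counted in the same way. Of the other glycolysis and pyruvate genes, 10 rose and 7 fell of 24 tested in 4T1, 9 rose and 6 fell of 23 in MC38, and 7 rose and 6 fell of 25 in LLC. Of the other HIF pathway genes and targets, 23 rose and 9 fell of 42 in 4T1, 24 rose and 4 fell of 39 in MC38, and 9 rose and 11 fell of 39 in LLC. Over all genes tested, 33.5% rose and 33.3% fell in 4T1, 19.5% and 18.3% in MC38, and 15.1% and 12.2% in LLC, and no difference between these lists and the members was tested. By the naming rule, which takes the largest called changes among genes of 5 CPM or more, the rises in 4T1 were of the receptor Gpr146 (1.49 ± 0.0453), the kinase Pdk2 (1.42 ± 0.0868), the pyruvate dehydrogenase phosphatase Pdp2 (1.21 ± 0.0527) and the repressor Bhlhe40 (1.17 ± 0.0413). Car12, another membrane carbonic anhydrase (-0.79 ± 0.0454), fell there. Car12 thus fell where Car9 rose. Tigar, a fructose bisphosphatase (-0.55 ± 0.0545), and the ubiquitin ligase subunit Wsb1 (-0.52 ± 0.0315) also fell in 4T1. In MC38 the metallothioneins Mt1 (1.65 ± 0.0363) and Mt2 (1.60 ± 0.0361), the transporter Slc2a6 (1.42 ± 0.102) and Txnip (1.00 ± 0.0527), an inhibitor of glucose uptake, led the rises. The glucose-sensing factor Mlxip (-0.50 ± 0.143), the pyruvate dehydrogenase subunit Dlat (-0.25 ± 0.0337) and Eno3 (-0.23 ± 0.0618) were among the falls. In LLC, Txnip (0.84 ± 0.0663), Mt1 (0.55 ± 0.143), the muscle enolase Eno3 (0.55 ± 0.0734) and Mt2 (0.50 ± 0.0854) rose. Car12 (-1.002 ± 0.111), the glycogen branching enzyme Gbe1 (-0.61 ± 0.0487), the mitochondrial protease Lonp1 (-0.58 ± 0.0449) and the mitochondrial carboxykinase Pck2 (-0.47 ± 0.0575) fell furthest there.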

How the data were processed

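Poly(A) RNA was sequenced as stranded, paired-end libraries, per the labels' protocols. The submitters' processing notes name build mm10 and the tools RSEM 1.3.1, STAR 2.7.0f, cutadapt 1.18 and bcl2fastq 2.17, without their order. Annotation release: not given in the sources used here; the same holds for the strand setting. The authors deposited RSEM expected counts per gene, which were rounded to whole numbers, since 4.30 to 6.91% of a library's values were not whole. Reads that fit several near-identical genes are divided among them by RSEM. GENCODE gene models of GRCm38 gave positions and exon lengths.

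Groups came from the labels. Within each line, sildenafil was compared with control by edgeR 4.0.16 (R 4.3.3, limma 3.58.1), with TMM factors, filterByExpr and a robust quasi-likelihood test on 4 residual degrees of freedom, adjusted over all genes tested (threshold 0.05). An SE is the log2 fold change over the root of F. Differences between responses used all 18 libraries, and untreated lines the 9 controls. CPM were scaled within a line for responses and over the controls for untreated cells. Levels between genes and isoenzyme shares are CPM per kilobase of exon, scaled over all libraries. The tests were checked on simulated counts in which a small part of the genes changed, in both directions. That check does not cover changes as broad as those measured here. Figures were drawn with matplotlib 3.10.9.

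Alternatives were DESeq2 1.42.0, other scalings and filters, unrounded counts, protein-coding genes alone and other sets of libraries in the fit. Further ones were Gm26917 as a covariate, the replicate number as a block, copies added, a 2-fold limit and each library left out. Unrounded counts, Gm26917 as a covariate, copies added and the 2-fold limit were run for the responses within a line alone. The members and lists were chosen with earlier results of these data known. Values per library are given, for each line, for the 5 largest rises and falls of members of 5 CPM or more, for members called in opposite directions in 2 lines or differing most between lines, and for 10 members that the naming rule lists whatever their values. Other pathway genes are named up to 4 per direction and line, except 1 that is counted but not reported here.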

Additional observations from a re-analysis of the deposited data

Results flagged for a closer look

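The response to sildenafil differed between LLC and each other line for most members, by a test of the difference itself (edgeR, Benjamini-Hochberg adjusted p under 0.05). Between MC38 and 4T1, 17 of the 34 members tested in both lines were not called different. Of all genes in the fit, 42.0% differed between LLC and 4T1, 22.3% between LLC and MC38, and 34.6% between MC38 and 4T1. Values are differences in log2 fold change, and the line named first is the one from which the other was subtracted. Groups of 3 libraries were not searched for single libraries far from the rest. Treatment time differed for LLC, so line and time cannot be told apart in its differences. The alternatives run for these differences did not include Gm26917 as a covariate, which was run for the responses within a line alone.

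29 members differed between LLC and 4T1. Among transporters the LLC response was lower than that of 4T1 for Slc2a1 (-0.76). Among transporters the LLC response was higher than that of 4T1 for Slc16a1 (0.68). Among glycolytic enzymes the LLC response was lower than that of 4T1 for Aldoc (-2.23), Eno2 (-1.58), Pfkm (-0.87), Pfkp (-0.81), Gpi1 (-0.72) and the main Aldoa gene (-0.45). It was also lower for Pgam1 (-0.33), Hk1 (-0.32), Pfkl (-0.30), Tpi1 (-0.30), Gapdh (-0.24) and Hk2 (-0.21). Among glycolytic enzymes the LLC response was higher than that of 4T1 for Eno1 (0.23). Among regulatory enzymes the LLC response was lower than that of 4T1 for Pfkfb4 (-0.99) and Pdk1 (-0.88). Among regulatory enzymes the LLC response was higher than that of 4T1 for Pfkfb3 (0.38). Among HIF subunits and sensors the LLC response was lower than that of 4T1 for Egln3 (-1.31) and Egln1 (-0.58). Among other HIF targets the LLC response was lower than that of 4T1 for Ankrd37 (-1.90), Adm (-1.73), Bnip3 (-1.60), Car9 (-1.41), Ero1l (-1.24) and Ndrg1 (-1.13). It was also lower for P4ha2 (-0.78), Kdm3a (-0.58) and P4ha1 (-0.21). The call for Car9, which had 4 to 20 counts in LLC libraries, was lost in 5 of 18 alternatives (edgeR adjusted p from 0.0617 to 0.283), among them the fit of the libraries of these 2 lines alone and those without LLC control replicate 1 or 3 or sildenafil replicate 1 or 2. Those for Hk2 (without LLC control replicate 2) and Tpi1 (without 4T1 sildenafil replicate 2) were lost in 1 alternative each, and the other 26 calls held in every alternative run.

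30 members differed between LLC and MC38. Among transporters the LLC response was lower than that of MC38 for Slc16a3 (-1.07) and Slc2a1 (-0.86). Among transporters the LLC response was higher than that of MC38 for Slc16a1 (0.16). Among glycolytic enzymes the LLC response was lower than that of MC38 for the upstream Aldoa entry (-0.91), Eno2 (-0.85), Pfkp (-0.83), Pfkl (-0.75), the main Aldoa gene (-0.61) and Tpi1 (-0.53). It was also lower for Hk2 (-0.52), Gpi1 (-0.52), Gapdh (-0.37), Pgk1 (-0.35), Pgam1 (-0.28) and Eno1 (-0.27). It was also lower for Hk1 (-0.24) and Pkm (-0.22). Among regulatory enzymes the LLC response was lower than that of MC38 for Pdk1 (-1.15) and Pfkfb4 (-0.51). Among regulatory enzymes the LLC response was higher than that of MC38 for Pfkfb3 (0.51). Among HIF subunits and sensors the LLC response was lower than that of MC38 for Egln3 (-1.08) and Egln1 (-0.50). Among other HIF targets the LLC response was lower than that of MC38 for Bnip3 (-1.90), Ankrd37 (-1.54), Ero1l (-1.36), Vegfa (-0.94), P4ha2 (-0.85) and Ndrg1 (-0.80). It was also lower for Kdm3a (-0.74) and P4ha1 (-0.58). The Pkm call was lost in 9 of 18 alternatives (edgeR adjusted p from 0.0513 to 0.149), 7 of them with a single library left out. The call for the upstream Aldoa entry was lost in 7 of 17 (0.0552 to 0.153) and that for Slc16a1 in 2 of 18 (0.0512 and 0.0709), and the other 27 calls held in every alternative run.

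17 members differed between MC38 and 4T1. Among transporters the MC38 response was higher than that of 4T1 for Slc16a1 (0.52). Among glycolytic enzymes the MC38 response was lower than that of 4T1 for Aldoc (-1.77), Eno2 (-0.73), Pfkm (-0.72) and Gpi1 (-0.20). Among glycolytic enzymes the MC38 response was higher than that of 4T1 for the upstream Aldoa entry (0.96), Eno1 (0.49), Pfkl (0.45), Ldha (0.42) and Hk2 (0.31). Among regulatory enzymes the MC38 response was lower than that of 4T1 for Pfkfb4 (-0.48). Among regulatory enzymes the MC38 response was higher than that of 4T1 for Pdk1 (0.27). Among HIF subunits and sensors the MC38 response was lower than that of 4T1 for Egln3 (-0.23). Among other HIF targets the MC38 response was lower than that of 4T1 for Ndrg1 (-0.33). Among other HIF targets the MC38 response was higher than that of 4T1 for Vegfa (0.82), P4ha1 (0.37) and Kdm3a (0.16). The Kdm3a call was lost in 12 of 18 alternatives (edgeR adjusted p from 0.0515 to 0.163), DESeq2 among them. Single libraries left out ended the calls for Egln3 in 7 of 12 cases (0.0501 to 0.158), Gpi1 in 6 (0.0611 to 0.0976) and the upstream Aldoa entry in 2 (without MC38 control or sildenafil replicate 3, 0.051 and 0.0805). The other 13 calls held in every alternative run.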

How the results depend on the processing

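Requiring a change of at least 2-fold left 4 members that rose and 0 that fell in 4T1, 2 and 0 in MC38, and 0 and 1 in LLC. With Gm26917 as a covariate 3 rose and 0 fell in 4T1, 17 and 0 in MC38, and 2 and 23 in LLC, where 6.93%, 6.91% and 16.3% of all genes were called, against 66.7%, 37.8% and 27.3% without it. In that fit Ldha (0.22) and Vegfa (-0.29) turned sign in 4T1 without being called. MC38 had 1 member that fell when 5 CPM in 3 libraries were required, since fewer genes were tested. LLC had 2 that rose, in place of 1, with library totals alone, no filter, all 18 libraries in 1 fit, copies added or the replicate block. With library totals alone 1 member, in place of 2, responded more in LLC than in MC38, and Hk2 (0.16), Pfkm (0.17), Pkm (0.0373) and Kdm3a (0.0569) turned sign between untreated 4T1 and MC38. Beyond what these settings show by construction, the cause was not tested.

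With each library left out in turn, 24 to 29 members rose and 5 to 6 fell in 4T1, 29 to 30 rose and 2 fell in MC38, and 1 to 2 rose (2 without control replicate 3) and 13 to 19 fell in LLC. Calls over all genes ran from 60.9% to 67.2%, 29.6% to 34.3% and 13.4% to 43.6%, the last without LLC control replicate 3. Responses higher in LLC than in MC38 numbered 1 to 2 (1 without MC38 sildenafil replicate 2). Of 5252 gene values under alternatives, 4940 kept direction and call, 152 lost the call, 88 gained it, 6 reversed and 66 turned sign without being called in either. Taken by counts instead of per length, 26 of 63 isoenzyme share differences moved by more than the SD. Pairing of libraries by replicate number was not shown: correlations of same-numbered libraries ran from -0.289 to 0.398, and not every library correlated best with its own number. With 3 libraries a group these values cannot exclude pairing. With the replicate block 26 rose and 5 fell in 4T1, 31 and 2 in MC38, and 2 and 16 in LLC. In that fit 65.3%, 43.9% and 30.1% of all genes were called. Precision is limited by 3 libraries a group, and for members near 0 counts by depth.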

Other observations

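Several other genes of the same pathways were called in 1 direction in all 3 lines. Of 91 such genes, 58 were tested in every line, 8 rose in all of them and 3 fell in all of them. Of the 11274 genes tested in every line, 5.26% rose and 2.69% fell in all 3. The pathway genes were picked out after their values were seen, and of the 34 members tested in every line 0 did either. Slc2a6, a glucose transporter relative of lysosomes, rose by 2.27, 1.42 and 0.69 on the log2 scale in 4T1, MC38 and LLC. Ddit4 (REDD1), an inhibitor of mTORC1 signalling, rose by 0.97, 0.87 and 0.43 in the same order of lines. The metallothioneins, which bind zinc and copper, rose as well, Mt1 by 0.55, 1.65 and 0.55 and Mt2 by 0.71, 1.60 and 0.50. Vhl, which marks hydroxylated HIF alpha for destruction, rose by 0.20, 0.29 and 0.24. Egln2, the third prolyl hydroxylase and the only one not called in opposite directions between lines, rose by 0.44, 0.19 and 0.31. Bpgm, which diverts a glycolytic intermediate, rose by 0.46, 0.28 and 0.45, and the collagen lysyl hydroxylase Plod1 by 0.55, 0.28 and 0.40.

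The pyruvate dehydrogenase subunits Dlat and Dld fell in each line, with log2 fold changes in 4T1, MC38 and LLC of -0.11, -0.25 and -0.24 for Dlat and of -0.45, -0.12 and -0.22 for Dld. Sildenafil and control libraries did not overlap in any line for any of the genes named here. These genes were picked by their calls on the same libraries, so the lack of overlap adds no support. Of all genes tested in 4T1, 35.7% had no overlap with sildenafil higher and 35.3% with it lower. The same shares were 25.3% and 23.6% in MC38, and 23.3% and 20.6% in LLC.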
